A study of Homo sapiens with 6 samples.

Results

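The messages of 10 genes of transforming growth factor beta (TGF-beta) and bone morphogenetic protein (BMP) signalling were followed in HCT116, an established human colorectal carcinoma cell line that lacks DNA mismatch repair. The genes were taken by symbol from the 17047 genes of the deposited table, and all 10 had a row and passed the filter on low counts, which kept 12959 genes. They are the receptors TGFBR1, TGFBR2, BMPR1A and BMPR2, the transducers SMAD2, SMAD3 and SMAD4, and the target genes ID1, ID2 and ID3.

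TGF-beta and BMP ligands bring together a type II and a type I receptor kinase at the cell surface, and the type I receptor then phosphorylates a receptor-regulated SMAD. The TGF-beta branch works through SMAD2 and SMAD3 and the BMP branch through SMAD1, SMAD5 and SMAD9, and both use SMAD4 as the shared partner that carries the complex to DNA. In the intestinal epithelium TGF-beta restrains growth and BMP signals favour differentiation along the crypt, and the ID genes, inhibitors of basic helix-loop-helix transcription factors, are well known BMP targets.

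The study compared HCT116 cells carrying an shRNA against PLEK2, a pleckstrin family protein of the membrane and cytoskeleton, with cells carrying the non-targeting shRNA (shNC). Each group had 3 libraries, numbered 1 to 3 in the labels, and both groups were otherwise the same line with a lentiviral shRNA vector and no added ligand named in the labels. Polyadenylated RNA was read as single ends of 50 bases, and the estimated counts summed to between 14377532 and 15602732 per library. The study's materials list 1 PLEK2 shRNA, so the knockdown libraries were read as replicates of 1 shRNA in 1 cell line, and the labels do not say whether they came from separate cultures, so p-values measure only the spread between these libraries.

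PLEK2 itself stood at 86.0, 72.6 and 82.9 CPM (counts scaled to the library total with edgeR's TMM factors) in shNC replicates 1, 2 and 3 and at 16.02, 32.2 and 34.9 CPM in the knockdown libraries of the same numbers, so every library matched its label. The drop was deepest in replicate 1. PLEK2 changed by -1.54 on the log2 scale without a replicate block (edgeR adjusted p = 0.684) and by -1.57 with the replicate number as a block (edgeR adjusted p = 0.00106). The epithelial markers EPCAM, KRT8, KRT18, KRT19 and CDH1 were all present, with a summed level of 5052 to 5805 FPKM (fragments per kilobase of transcript, scaled to the library total) in shNC and 4214 to 5372 FPKM with the knockdown. Of 8 markers of fibroblasts, blood cells and endothelium that had a row, 7 stayed under 1 FPKM in all 6 libraries, the exception being COL1A1 at 4.62 FPKM in shNC replicate 1.

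Per transcript length, the target genes were the most abundant members and the receptors and SMAD4 the least. ID1 had the highest level, with a median of 216 FPKM over the 6 libraries (158 to 258 FPKM), above 98.1% of all genes in the table. ID2 followed at 67.3 FPKM (57.3 to 81.8 FPKM) and ID3 at 54.9 FPKM (31.6 to 72.7 FPKM), and the ranges of these 2 overlapped. SMAD3 was the most abundant transducer at 25.1 FPKM (23.2 to 26.9 FPKM), apart from both of its neighbours in the order.

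Below SMAD3 the levels lay close together. SMAD2 at 9.69 FPKM, BMPR1A at 9.23 FPKM and TGFBR2 at 8.72 FPKM formed a run in which each range overlapped the next. SMAD4 stood at 5.80 FPKM (4.99 to 6.15 FPKM) and TGFBR1 at 3.48 FPKM (2.99 to 5.08 FPKM), again with overlapping ranges. BMPR2, the type II receptor of the BMP branch, was lowest at 2.07 FPKM (1.87 to 2.60 FPKM), still above 38.4% of all genes.

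**Figure D1:**
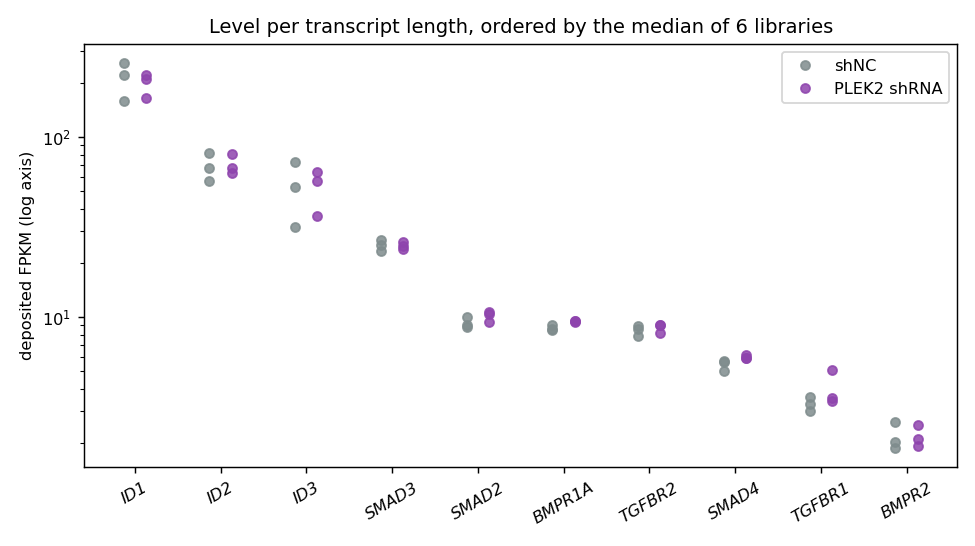
Deposited FPKM of each member (log axis) in the 3 shNC (grey) and 3 PLEK2 shRNA (purple) libraries, 1 point per library, ordered by the median of the 6. ID1 lies between 158 and 258 FPKM and BMPR2 between 1.87 and 2.60 FPKM, and the colours mix for most members.

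No member passed an adjusted p of 0.05 between the groups. In edgeR's quasi-likelihood test, which called 0 of 12959 genes (0.0%), the adjusted p of the members lay between 0.968 and 0.998, and none had an unadjusted p under 0.05, against 3.09% of all genes tested. DESeq2's Wald test called 12 genes and limma on log2(FPKM + 1) called 0, and neither list held a member. The same-numbered libraries of the groups deviated together, and edgeR with the replicate number added as a block called 110 genes (0.849% of all tested), none of them a member. At an unadjusted p under 0.05 that fit passed 1 of the 10 members, TGFBR1, against 18.3% of all genes.

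The groups overlapped in CPM for all 10 members, whereas 9.21% of all genes tested did not overlap. The median log2 fold change of the members was 0.01 with the block, beside -0.00 for all genes tested, and the median size of their change without it was 0.03, beside 0.10 for all genes. In bulk RNA, a difference in the share of cells that carry a message and a difference in its amount per cell cannot be told apart.

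**Figure D2:**
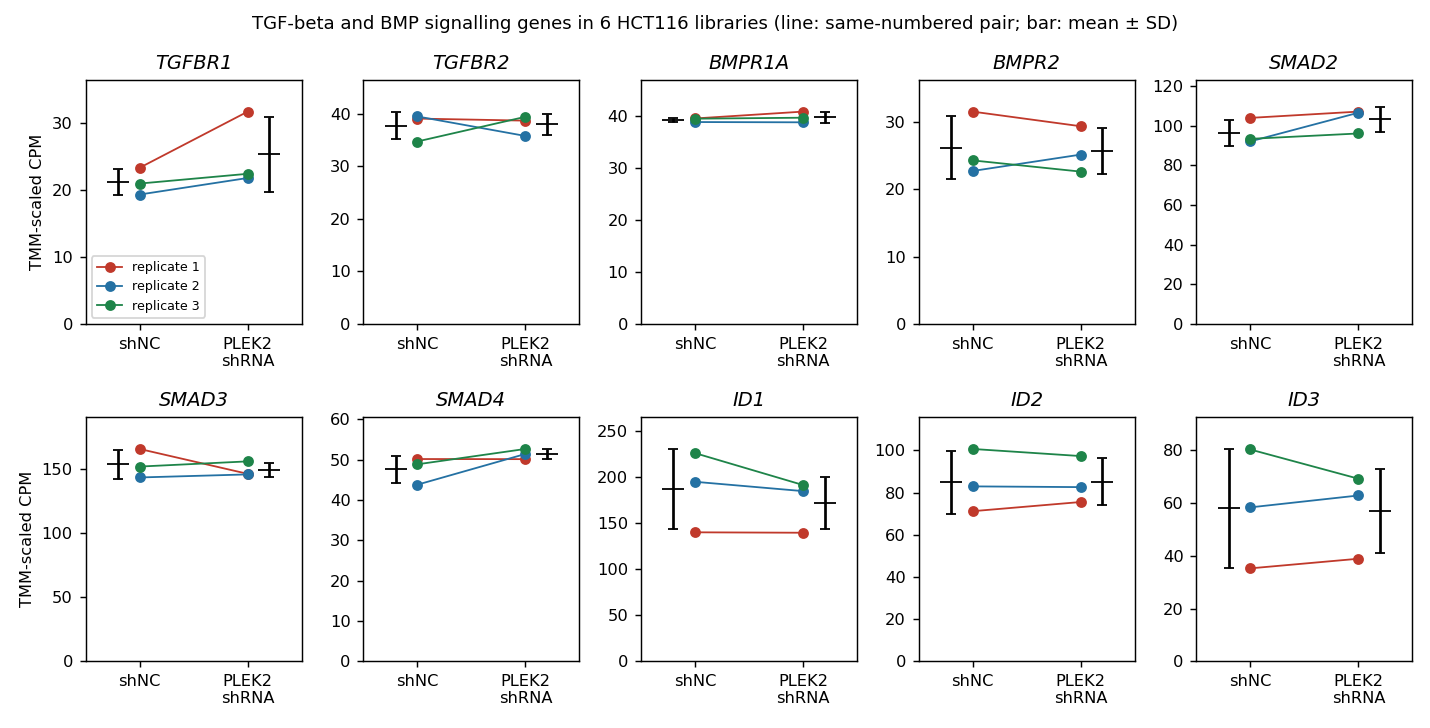
TMM-scaled CPM of each member in the 6 libraries. Lines join the shNC and the PLEK2 shRNA library of the same replicate number, and black bars give the mean ± SD of each group (n = 3). The red line of replicate 1 lies below the others for ID1, ID2 and ID3 and above them for TGFBR1 and BMPR2 in both groups.

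TGFBR1 encodes the type I receptor kinase of the TGF-beta branch (chr9:99104038-99154192, plus strand, GRCh38). Its level was 23.3, 19.3 and 21.0 CPM in shNC replicates 1, 2 and 3, and 31.7, 21.8 and 22.4 CPM in the knockdown libraries. Each knockdown library was above the shNC library of its own number, but replicates 2 and 3 of the knockdown lay under shNC replicate 1, and the highest value came from knockdown replicate 1. The means were 21.2 ± 2.01 and 25.3 ± 5.55 CPM (SD, n = 3).

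The log2 fold change of TGFBR1 was 0.26 (standard error 0.16, 95% interval -0.11 to 0.62, edgeR adjusted p = 0.968). With the replicate block it was 0.25 (standard error 0.09, 95% interval 0.05 to 0.44, edgeR adjusted p = 0.172). Within the pairs the log2 ratio was 0.44, 0.17 and 0.10, so pair 1 carried the largest share. Without knockdown replicate 1 the unblocked value was 0.06, in a fit that kept shNC replicate 1. Without replicate 1 of both groups the blocked value was 0.14 (edgeR adjusted p = 0.453).

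TGFBR2 encodes the type II receptor that binds TGF-beta and activates TGFBR1 (chr3:30606601-30694142, plus strand, GRCh38). It is the classic target of mismatch repair deficiency in colorectal cancer, because a run of adenines in its coding sequence loses or gains a base when slippage is not repaired, and HCT116 is known for such a frameshift. The run of 10 adenines (capitals) lies in exon 3 of the 7 exons of the canonical GENCODE 44 transcript, at chr3:30650380-30650389, and begins at coding base 374. The 60 bases around it, chr3:30650355-30650414 on the plus strand of GRCh38, are shown as the reference has them, not as these cells do.
TGFBR2 adenine run: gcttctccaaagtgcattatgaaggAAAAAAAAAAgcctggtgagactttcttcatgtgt

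TGFBR2 stood at 39.0, 39.5 and 34.7 CPM in shNC and at 38.7, 35.7 and 39.4 CPM with the knockdown. The lowest value was in shNC replicate 3 and the second lowest in knockdown replicate 2, so the ranges nearly coincided. Counts per gene do not show which allele a read came from, and the state of the run was not analysed here.

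The log2 fold change of TGFBR2 was 0.01 (standard error 0.10, 95% interval -0.21 to 0.23, edgeR adjusted p = 0.996), and 1 of 3 pairs was higher with the knockdown. The spread of its log2 CPM over the 6 libraries was 0.08 (SD), against 0.06 expected from counting alone at its mean of 568 counts. The genes whose pattern over the 6 libraries was nearest to that of TGFBR2, by the root mean square difference of centred log2 CPM, were OSGEP (0.03), MCM8 (0.03) and NDRG2 (0.03), chosen from 12808 genes. The differences between these patterns were smaller than the counting error of TGFBR2.

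BMPR1A, a type I receptor of the BMP branch (chr10:86756596-86932825, plus strand, GRCh38), varied least of the members. It stood at 39.4, 38.7 and 39.4 CPM in shNC and at 40.8, 38.7 and 39.6 CPM with the knockdown. Its log2 fold change was 0.02 (standard error 0.08, 95% interval -0.17 to 0.21, edgeR adjusted p = 0.990). The spread over the 6 libraries, 0.03 (SD of log2 CPM), was below the 0.06 that counting alone would give at 592 counts.

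The deposited FPKM of BMPR1A differed from its counts, at 9.08, 8.61 and 8.52 FPKM in shNC and 9.57, 9.39 and 9.48 FPKM with the knockdown, which do not overlap. The share of all genes without overlap in FPKM was not determined. None of its 6 counts was whole, and the transcript length that its count and FPKM imply moved between 4123 and 4610 bases from library to library. How reads were divided among its transcripts was not tested. The limma value on log2(FPKM + 1) was 0.11 and passed no threshold (limma adjusted p = 0.937).

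BMPR2, the type II receptor that BMP ligands share (chr2:202376327-202567751, plus strand, GRCh38), was highest in replicate 1 of both groups. Its level was 31.5, 22.7 and 24.3 CPM in shNC and 29.4, 25.2 and 22.6 CPM with the knockdown. The log2 fold change was -0.03 (standard error 0.15, 95% interval -0.37 to 0.32, edgeR adjusted p = 0.992). The values of the groups interleaved, and 1 of 3 pairs was higher with the knockdown.

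**Figure D3:**
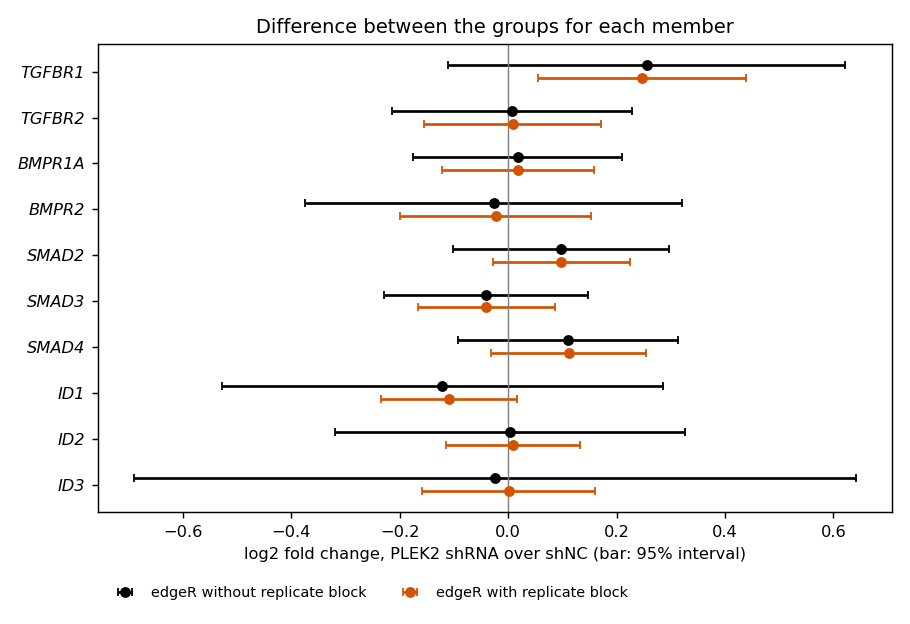
Log2 fold change (PLEK2 shRNA over shNC) of each member with its 95% interval, from edgeR without (black) and with (orange) the replicate block. All 10 black intervals and 9 of the 10 orange ones cross 0, the exception being TGFBR1, and the intervals of ID1, ID2 and ID3 shorten most with the block.

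SMAD2, a receptor-regulated SMAD of the TGF-beta branch (chr18:47808957-47931146, minus strand, GRCh38), was measured with 1500 counts per library on average. It stood at 104, 92.0 and 93.3 CPM in shNC and at 107, 106 and 96.0 CPM with the knockdown. Each knockdown library was higher than its numbered partner, but knockdown replicate 3 lay below shNC replicate 1. The log2 fold change was 0.10 (standard error 0.09, 95% interval -0.10 to 0.30, edgeR adjusted p = 0.968).

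SMAD3, the other receptor-regulated SMAD of that branch (chr15:67063763-67195173, plus strand, GRCh38), stood at 165, 143 and 152 CPM in shNC. With the knockdown it stood at 146, 146 and 156 CPM, inside the shNC range in all 3 libraries. The log2 fold change was -0.04 (standard error 0.08, 95% interval -0.23 to 0.15, edgeR adjusted p = 0.970).

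SMAD4, the common partner (chr18:51028528-51085045, plus strand, GRCh38), stood at 50.1, 43.8 and 48.8 CPM in shNC and at 50.1, 51.4 and 52.6 CPM with the knockdown. The groups met at replicate 1, whose 2 libraries had the same level to 3 digits, and the other 2 knockdown libraries were above all shNC libraries. In deposited FPKM, which carries no TMM factor, the groups did not overlap (4.99 to 5.70 FPKM against 5.91 to 6.15 FPKM). As for BMPR1A, the share of all genes without overlap in FPKM was not determined, so this is not read as a result about SMAD4. The log2 fold change was 0.11 (standard error 0.09, 95% interval -0.09 to 0.31, edgeR adjusted p = 0.968).

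Over the 10 members, 2 (TGFBR1 and SMAD2) were higher with the knockdown in all 3 same-numbered pairs, beside 19.9% of all genes tested. ID1 alone was lower in all 3 pairs, beside 21.1% of all genes. These counts are near what the table as a whole gave.

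ID3 and ID1 had the widest spread among the members, and all 3 ID genes differed more between replicate numbers than between the groups. ID1 (chr20:31605283-31606515, plus strand, GRCh38) stood at 140.0, 195 and 226 CPM in shNC and at 139.5, 185 and 191 CPM with the knockdown. ID2 (chr2:8678845-8684461, plus strand) stood at 71.2, 82.9 and 101 CPM in shNC and at 75.5, 82.6 and 97.3 CPM with the knockdown. ID3 (chr1:23557926-23559501, minus strand) stood at 35.3, 58.4 and 80.3 CPM in shNC and at 38.9, 62.9 and 69.2 CPM with the knockdown.

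Replicate 1 was the lowest and replicate 3 the highest library of its group for each of the 3 genes, in both groups. The share of all genes with this order was not determined. Between these libraries ID3 differed 2.28-fold in shNC and 1.78-fold with the knockdown, ID1 1.61-fold and 1.37-fold, and ID2 1.41-fold and 1.29-fold. Between the groups, ID1 changed by -0.12 on the log2 scale (standard error 0.18, 95% interval -0.53 to 0.29, edgeR adjusted p = 0.968). ID2 changed by 0.00 (95% interval -0.32 to 0.33, edgeR adjusted p = 0.998) and ID3 by -0.02 (95% interval -0.69 to 0.64, edgeR adjusted p = 0.996).

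With the replicate block the 95% interval of ID3 narrowed to -0.16 to 0.16, that of ID2 to -0.11 to 0.13 and that of ID1 to -0.23 to 0.02. A change of 1 on the log2 scale, in either direction, lies outside the interval of all 10 members in both fits. The ID1 value within the pairs was -0.01, -0.08 and -0.24, all below 0, and its edgeR adjusted p with the block was 0.339.

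The replicate number itself was tested as a term of the blocked edgeR fit, a test added after the values were seen. It passed an adjusted p of 0.05 for 5 of the 10 members, while 28.4% of all genes passed. The edgeR adjusted p was 8.2e-05 for ID3, 0.00046 for ID1, 0.0022 for ID2, 0.019 for BMPR2 and 0.022 for TGFBR1. The ID genes were lowest in replicate 1, and BMPR2 and TGFBR1 were highest there. The calls of ID1, ID2 and ID3 held with each of the 6 libraries left out in turn, whereas that of TGFBR1 was lost in 3 of these fits and that of BMPR2 in 2. Fewer genes of the whole table passed without shNC replicate 2 (2008) and without knockdown replicate 2 (1810) than with all 6 libraries (3684).

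Against replicate 1, the term put replicate 3 at 1.01 on the log2 scale for ID3, and 1.59% of all genes had a replicate difference at least this large. For ID1 it was 0.57, reached by 11.1% of all genes, and for ID2 0.43, reached by 21.6%. Replicate 1 also had the largest library total of its group, 15602732 in shNC and 15421190 with the knockdown, and its knockdown library had the lowest PLEK2. The part of these in the difference was not tested, and the labels do not say what the replicate number stands for.

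**Figure D4:**
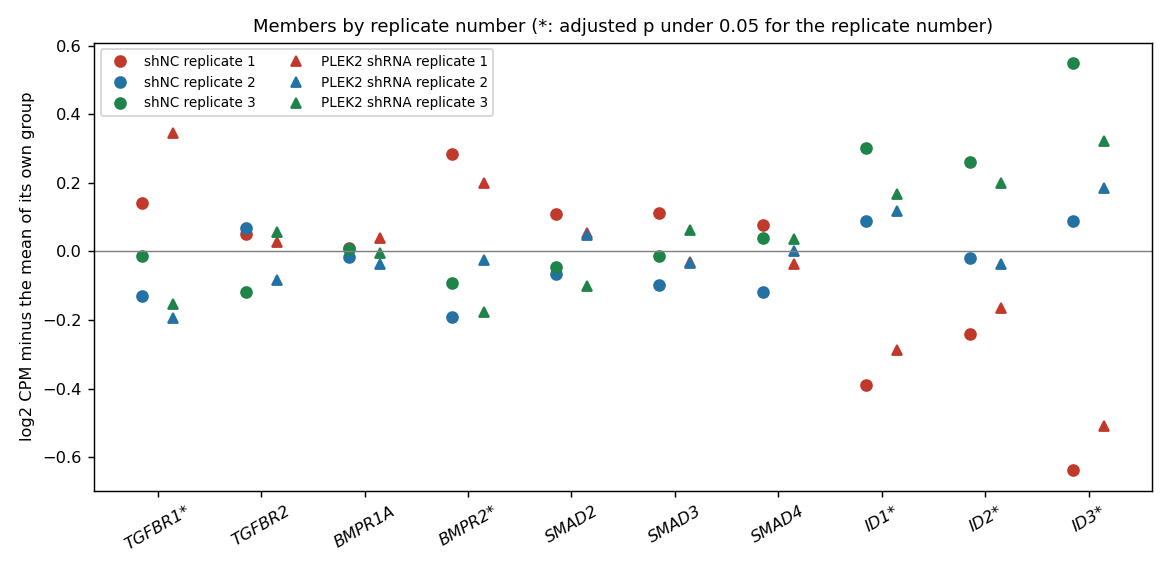
Log2 CPM of each member minus the mean of its own group, in shNC (circles) and PLEK2 shRNA (triangles) libraries, coloured by replicate number. Circle and triangle of one colour lie on the same side for ID1, ID3, TGFBR1, BMPR2 and ID2. An asterisk marks an adjusted p under 0.05 for the replicate number.

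The 250 bases before the start sites of the 3 ID genes are shown (RefSeq, GRCh38.p14), printed in the direction of transcription. A link between these sequences and the order of the replicates was not tested. Capitals mark the 4 letters GTCT on either strand (AGAC on the other), the core that SMAD3 and SMAD4 contact. The windows are chr20:31605039-31605288 (plus strand) for ID1, chr2:8681806-8682055 (plus strand) for ID2 and chr1:23559502-23559751 (minus strand) for ID3. RefSeq and GENCODE starts differ for ID1 and ID2. The ID2 window lies inside the GENCODE interval given above, and the ID1 window reaches past its GENCODE start.
ID1 promoter: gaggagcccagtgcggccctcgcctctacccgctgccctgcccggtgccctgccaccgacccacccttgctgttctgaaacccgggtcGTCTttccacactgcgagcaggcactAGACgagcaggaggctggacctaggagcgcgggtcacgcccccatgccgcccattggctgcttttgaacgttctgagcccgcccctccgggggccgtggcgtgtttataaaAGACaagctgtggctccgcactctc
ID2 promoter: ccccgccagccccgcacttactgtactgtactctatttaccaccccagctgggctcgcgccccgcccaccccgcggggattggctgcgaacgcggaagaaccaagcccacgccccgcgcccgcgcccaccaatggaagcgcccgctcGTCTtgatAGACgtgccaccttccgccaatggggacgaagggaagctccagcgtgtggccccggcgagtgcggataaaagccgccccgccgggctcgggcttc
ID3 promoter: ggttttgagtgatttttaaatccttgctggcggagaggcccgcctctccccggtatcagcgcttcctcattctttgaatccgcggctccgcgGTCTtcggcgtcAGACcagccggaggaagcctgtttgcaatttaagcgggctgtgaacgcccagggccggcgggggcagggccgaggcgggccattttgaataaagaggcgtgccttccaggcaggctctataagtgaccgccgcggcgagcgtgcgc

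ID1 held 3 of these matches and ID2 and ID3 held 2 each. Such a short word is common, and 77.5% of the 35116 RefSeq promoter windows of this length held at least 1, with a mean of 1.55. The BMP-type word GGCGCC was in none of the 3 windows and in 16.4% of all windows. Near forms of this word and bases farther upstream were not searched, so a lack of BMP-type sites is not shown. The TATA word TATAAA, on either strand, was found at 2 overlapping positions in ID1 only, and in 10.7% of all windows. All 3 were rich in G and C, at 66.0% (ID1), 69.2% (ID2) and 62.0% (ID3).

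The genes whose pattern over the 6 libraries was nearest to ID1, chosen from 7679 genes, were GLI4, TNFRSF6B and MSX1. Their root mean square difference from ID1 was 0.02, 0.03 and 0.03 on the log2 scale. Counting alone at the mean of 2678 counts would give ID1 an SD of 0.03. The replicate number was past the threshold for all 3, but they were chosen for following ID1, which had passed it. This is therefore no separate result. MSX1 encodes a homeobox factor and was on the list of target genes used here. ID2 and ID3 were farther from ID1, at 0.13 and 0.19, which ranked them 679 and 2024 among these genes. The SD of log2 CPM over the 6 libraries was 0.28 for ID1, 0.20 for ID2 and 0.47 for ID3.

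Ratios between partners were compared within libraries, where library depth cancels. TGFBR2 to TGFBR1 in FPKM was 2.38, 2.97 and 2.39 in shNC and 1.77, 2.40 and 2.55 with the knockdown. BMPR2 to BMPR1A was 0.286, 0.217 and 0.238 in shNC and 0.262, 0.225 and 0.202 with the knockdown. The moving implied length of BMPR1A does not cancel in this ratio. Its mean log2 value differed by -0.11 between the groups in FPKM and by -0.04 in CPM. Both receptor ratios overlapped between the groups.

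SMAD3 to SMAD2 was 2.71, 2.63 and 2.79 in shNC and 2.35, 2.32 and 2.76 with the knockdown. SMAD4 to SMAD2 was 0.573, 0.566 and 0.621 in shNC and 0.556, 0.573 and 0.652 with the knockdown. SMAD3 to SMAD2 was lower in all 3 knockdown libraries than in their numbered partners, but knockdown replicate 3 lay inside the shNC range.

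ID1 to ID3 was 5.0, 4.21 and 3.54 in shNC and 4.52, 3.68 and 3.47 with the knockdown. It was lower in all 3 knockdown libraries than in their partners, and in both groups it was highest in replicate 1. A two-sided exact permutation test of the 5 ratios gave p = 0.3 for SMAD3 to SMAD2, 0.8 for SMAD4 to SMAD2 and 0.6 for the other 3, where 3 against 3 libraries cannot give less than 0.1. After Benjamini-Hochberg adjustment over the 5 ratios the exact p-values were 0.75 to 0.8.

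The rest of the pathway was read from 6 lists of 147 genes, of which 132 had a row and 102 were tested. At an adjusted p of 0.05 and without the block, 0 of the 102 were called by edgeR, by DESeq2 or by limma, and 5 had an unadjusted edgeR p under 0.05 (beside 3.09% of all genes), SMAD1 and ZFYVE9 above shNC and AMH, TGFBR3 and SMURF2 below it. With the block 3 were called, or 2.94% beside the 0.849% of all genes, namely AMH and TGFBR3, which fell, and CDKN1A, which rose. The calls of all 3 were lost when replicate 2 of both groups was left out of the blocked fit, with log2 fold changes of -0.47, -0.64 and 0.37 and edgeR adjusted p-values of 0.294, 0.238 and 0.212. All 3 were called without replicate 1 of both groups (edgeR adjusted p = 9.6e-05, 0.0292 and 0.0027) and without replicate 3 (edgeR adjusted p = 0.0376, 0.00054 and 5.0e-05). How many of all genes were called in these fits with a replicate number left out was not determined. At an unadjusted p under 0.05 the blocked fit passed 27 of the 102 genes, 11 above and 16 below shNC, beside 18.3% of all genes (1023 above and 1354 below). The groups did not overlap in CPM for 11 of the 102 genes, a share near the 9.21% of all genes tested. Genes named below were chosen partly by the smallest p of their list, which favours separation.

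Among the ligands, 16 of 33 listed genes were tested and 1 was called with the block, beside 0.849% of all genes. With the block 4 ligands had an unadjusted p under 0.05 (2 above and 2 below shNC, beside 18.3% of all genes). AMH, the anti-Muellerian hormone, fell from 15.1, 21.5 and 21.5 CPM in shNC to 12.8, 13.2 and 13.1 CPM, and the groups did not overlap. Its log2 fold change with the block was -0.56 (standard error 0.11, edgeR adjusted p = 0.0375), against an adjusted p of 0.968 without it. BMP2 was at 2.199 ± 0.298 CPM in shNC and 1.65 ± 0.204 CPM with the knockdown (edgeR adjusted p = 0.371 with the block). BMP4, the most abundant ligand, was at 164 ± 11.1 and 163 ± 6.86 CPM.

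Of the 10 other receptors and co-receptors tested, 1 was called with the block, beside 0.849% of all genes. In that fit 3 had an unadjusted p under 0.05 (2 above and 1 below shNC, beside 18.3% of all genes). TGFBR3, or betaglycan, presents TGF-beta to TGFBR2. It fell from 15.8, 17.3 and 15.6 CPM to 8.14, 12.1 and 12.1 CPM, without overlap, with a blocked log2 fold change of -0.60 (standard error 0.12, edgeR adjusted p = 0.0406) and an unblocked adjusted p of 0.968. The activin receptors did not pass. ACVR2B was at 28.4 ± 2.52 and 32.8 ± 2.67 CPM and ACVR1B, the most abundant of these genes, at 49.8 ± 5.07 and 56.6 ± 4.35 CPM, with blocked edgeR adjusted p-values of 0.154 and 0.136.

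None of the 17 other SMADs and partners was called by edgeR in either fit, and 6 had an unadjusted p under 0.05 with the block (2 above and 4 below shNC, beside 18.3% of all genes). The 4 below were CREBBP, HGS, MED15 and RUNX2, named after their values were seen, and CREBBP had the smallest blocked p of the list (log2 fold change -0.42, edgeR adjusted p = 0.0505). SMAD1, which the BMP receptors phosphorylate, stood at 25.6, 29.7 and 27.9 CPM in shNC and at 32.7, 33.4 and 32.7 CPM with the knockdown, without overlap. Its log2 fold change was 0.25 in both fits, with an edgeR adjusted p of 0.968 without and 0.114 with the block. ZFYVE9 (SARA), which brings SMAD2 and SMAD3 to the TGF-beta receptor, was at 39.1 ± 2.31 and 46.3 ± 4.54 CPM (edgeR adjusted p = 0.0954 with the block). TFDP1, the most abundant of the list, was at 272 ± 11.5 and 272 ± 7.12 CPM.

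Of 15 extracellular antagonists and activators tested none was called by edgeR and 5 had an unadjusted p under 0.05 with the block (1 above and 4 below shNC, beside 18.3% of all genes), and the blocked list median was -0.11 on the log2 scale beside -0.00 for all genes. NBL1, a BMP antagonist, was at 90.5 ± 2.95 and 78.6 ± 8.07 CPM, and LTBP3, which holds latent TGF-beta in the matrix, at 174 ± 29.8 and 150.3 ± 15.7 CPM, with blocked edgeR adjusted p-values of 0.111 and 0.0982. Of 22 genes on the list headed inhibitors of the signal none was called by edgeR. With the block 5 had an unadjusted p under 0.05 (3 above and 2 below shNC, beside 18.3% of all genes). The 3 above were PPM1A (0.19), CTDSPL (0.14) and UCHL5 (0.14 on the log2 scale), named after their values were seen. The list also holds genes that can favour the signal, UCHL5 among them, so its counts above and below give no direction of the signal. SMURF2, a ubiquitin ligase for receptors and SMADs, stood at 169, 150.0 and 148 CPM in shNC and at 125, 139 and 125 CPM with the knockdown, without overlap (edgeR adjusted p = 0.0695 with the block). CTDSP1, a SMAD linker phosphatase, was at 109 ± 11.7 and 94.4 ± 12.7 CPM, and FKBP1A, which binds the type I receptor and was the most abundant of the list, at 272 ± 3.19 and 266 ± 4.10 CPM.

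Of 22 target genes beyond the members, 1 was called with the block, beside 0.849% of all genes. In that fit 4 had an unadjusted p under 0.05 (1 above and 3 below shNC, beside 18.3% of all genes). CDKN1A, which encodes the cell cycle inhibitor p21 and is also a target of p53, stood at 214, 126 and 136 CPM in shNC and at 299, 158 and 158 CPM with the knockdown. It rose in each pair while the groups overlapped, and replicate 1 was far above the others in both. The blocked log2 fold change was 0.35 (standard error 0.06, edgeR adjusted p = 0.0215), against an unblocked adjusted p of 0.968. Without knockdown replicate 1 the unblocked value was -0.01, in a fit that kept the high shNC replicate 1. Without replicate 1 of both groups the blocked value was 0.28 (edgeR adjusted p = 0.0027). CYR61 (CCN1), HES1 and MYC, the most abundant of the list at 458 ± 48.1 and 447 ± 19.4 CPM, were not called, with blocked edgeR adjusted p-values of 0.181, 0.148 and 0.798.

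**Figure D5:**
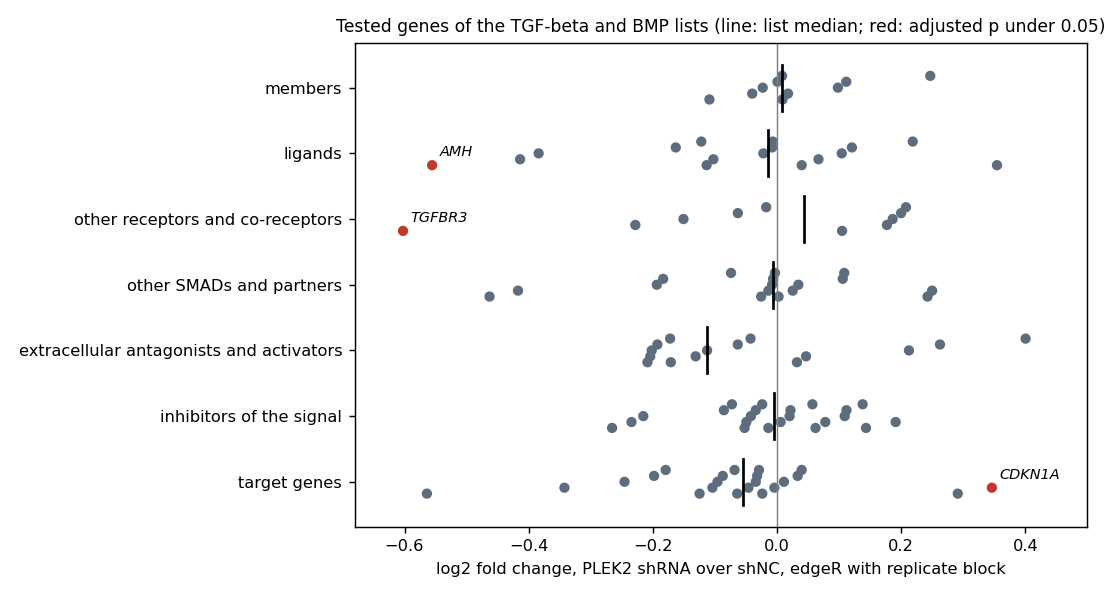
Blocked edgeR log2 fold change (PLEK2 shRNA over shNC) of each tested gene, 1 row per list and 1 point per gene. Vertical bars mark list medians, which lie between -0.11 and 0.04, and the 3 red points (AMH, TGFBR3 and CDKN1A) passed an adjusted p of 0.05.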

How the data were processed

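The 6 libraries of HCT116 cells were grouped and numbered from the submitters' labels. The authors deposited estimated counts per gene without normalization, and beside them values whose header names no unit. These deposited values were read as FPKM, since they scale with transcript length and library total. The submitters' processing notes name HISAT2 2.0.4, Bowtie2 2.2.5, RSEM 1.2.12 and DESeq2 1.4.5, and the mouse build GRCm38.p6, although the samples are human and the gene identifiers are human NCBI genes. Group means deposited by the authors were not used.

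Counts were rounded. Default filterByExpr kept 12959 of 17047 genes, TMM factors were 0.984 to 1.021, and edgeR 4.0.16 (quasi-likelihood, Benjamini-Hochberg over all genes tested) compared the groups, with standard errors taken from the F statistic. The replicate block was an alternative. The libraries were paired by number: over 10161 genes, the departures of same-numbered libraries from their group means had correlations of 0.736, 0.558 and 0.554, and those of the others lay between -0.629 and 0.358. Replicates 2 and 3 also correlated with each other across the groups (0.355 and 0.358), and departures from a mean of 3 libraries are not independent. The pairing is therefore clearest for replicate 1. It comes from the values and shared numbers, not from a stated day or batch.

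The members and lists were chosen with earlier results of these data known, and the lists were written from general knowledge. From each list the text names the 2 genes with the smallest p, the most abundant by FPKM and any gene called. Genes most like TGFBR2 and ID1 were sought among genes whose SD was at least 0.5 times that of the member. Further alternatives were DESeq2 1.42.0 (size factors, Wald test), library totals, other filters on low counts, limma 3.58.1 on log2(FPKM + 1) and fits without each single library. The block with other scaling or with a replicate number left out, and the test of the replicate number, were added after seeing the data. The test was tried on simulated counts with known changes. List symbols were matched by symbol or NCBI gene, and 15 list genes were not analysed here. Coordinates come from GENCODE 44 (GRCh38) and promoters from RefSeq. On the annotation, 16 other gene models overlap 8 of the members, and none had a row under its GENCODE name. Whether counting used strand is not given in the sources used here. R 4.3.3, Python 3.11.15, numpy 2.4.6, pandas 2.3.3 and scipy 1.17.1 were used.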

Additional observations from a re-analysis of the deposited data

How the results depend on the processing

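No member was called under any of the alternatives run, and of the 10 members TGFBR1, SMAD2, SMAD4, BMPR1A and ID1 kept their direction in all 12 alternatives other than those without a single library. Of the 102 pathway genes tested, the replicate block called 3 with TMM, the same number after scaling as in DESeq2 (3), 4 after scaling to library totals (CREBBP in addition), 6 without replicate 1 and 6 without replicate 3 of both groups, and 0 without replicate 2. Apart from the block with TMM and all 6 libraries, the share of all genes called in these fits was not determined. The counts are therefore not read as gains or losses of the pathway genes. Of all genes, 110 were called with the block and 12 by DESeq2's Wald test, and 0 to 1 with a library left out. The 1 came without knockdown replicate 1. The members called for the replicate number were 5 under each scaling and 3 to 5 with a library left out, 3 without shNC replicate 2. Of all genes, 3684 were called for it with all 6 libraries, 2008 without shNC replicate 2 and 1810 without knockdown replicate 2. The other fits called 3480 to 3865. The fall in the members therefore came with a fall in the whole table. Depth limits the low members most, since TGFBR1 and BMPR2 had 351 and 391 counts per library on average. With TMM and all 6 libraries, the replicate block changed the call of AMH, TGFBR3, CDKN1A and PLEK2 and of no other gene named. In further blocked fits CREBBP, LTBP3, LTBP4, GDF15 and SMURF2 each passed at least once (adjusted p from 5.7e-07 to 0.0401).

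The sign of some log2 fold changes turned under an alternative, and the cause was not tested. With the block and without replicate 3 of both groups the value was -0.067 for TGFBR2, 0.025 for BMPR2, 0.13 for ID3, 0.017 for BMP4 and -0.037 for TFDP1. With library totals the value was 0.0058 for BMPR2, 0.0030 for ID3 and 0.022 for BMP4. With limma on log2(FPKM + 1) the value was 0.0070 for BMPR2, 0.045 for ID3, 0.026 for BMP4, 0.0036 for FKBP1A and 0.00032 for MYC. With the block and library totals the value was 0.0093 for BMPR2, 0.031 for ID3 and 0.023 for BMP4. With the block and without replicate 1 of both groups the value was 0.028 for BMPR2, 0.036 for SMAD3, -0.023 for ID2 and 0.026 for MYC. With the replicate block the value was 0.00068 for ID3. With the block and DESeq2's size factors the value was 0.0083 for ID3 and 0.00024 for BMP4. With all genes of at least 1 count the value was 0.00017 for BMP4. With at least 10 counts in each library the value was 0.00023 for BMP4. With the block and without replicate 2 of both groups the value was 0.013 for BMP4. With 1 library left out the log2 fold change was -0.039 to 0.050 for TGFBR2, -0.0020 to 0.035 for BMPR1A, -0.13 to 0.14 for BMPR2, -0.080 to 0.028 for SMAD3, -0.28 to 0.048 for ID1, -0.10 to 0.15 for ID2, -0.27 to 0.29 for ID3, -0.053 to 0.034 for BMP4, -0.021 to 0.041 for TFDP1, -0.10 to 0.054 for MYC and -0.0063 to 0.66 for CDKN1A, and the difference of the log2 ratio was -0.21 to 0.0042 for BMPR2 to BMPR1A, -0.054 to 0.060 for SMAD4 to SMAD2 and -0.25 to 0.00047 for ID1 to ID3.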
